A study of Mus musculus with 18 samples.

Results

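The genes described here are 42 genes of testicular macrophages and of antigen presentation, taken from a fixed list of macrophage identity, complement and major histocompatibility complex (MHC) genes. The list held 43 symbols, of which Emr1 is an older name of Adgre1. Every probe annotated to these genes was taken, and a gene was used where 4 or more arrays detected a probe of it at p under 0.01. This left 26 genes with 36 probes, of 10798 genes and 19076 probes that passed the same filter in the whole series. A further 14 genes had probes below the filter, and Cd68 and C3 were not analysed here because no probe carries their name.

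Whole testes of 12-week-old mice from a cross of FVB/N with C57/BL6 were profiled on Illumina bead arrays, with 1 array per sample. The 18 arrays comprised 4 Wild type, 4 Fshr mutant, 5 Lhr null and 5 Fshr mutant/Lhr null, and the last group is called the double mutant. Fshr encodes the receptor for follicle-stimulating hormone on Sertoli cells. Lhr, also named Lhcgr, encodes the receptor for luteinizing hormone on Leydig cells. The headers of the deposited table call the mutant allele Fshr-CAM, and what it does to the receptor is not stated there. The labels name no promoter, no founder line and no control genotype other than Wild type. They also do not say that each array is a separate animal, so the p-values describe the spread between these samples.

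Resident macrophages of the testis lie in the interstitium next to the Leydig cells, which make testosterone, and on the outer wall of the seminiferous tubules. In mice the interstitial cells are known for strong Csf1r and low MHC class II, and the peritubular cells for MHC class II. MHC class II presents peptides from ingested material to helper T cells, and MHC class I, present on most nucleated cells but scarce on germ cells, presents peptides made inside the cell to cytotoxic T cells.

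Between 15482 and 18950 of 45281 probes were detected on an array. Array number limits the precision of every value. One Lhr null array, replicate 1, lay nearer to the Wild type arrays than the others of its group, with a mean correlation of 0.937 with them over all tested genes, against 0.849 to 0.887. For Fshr itself the array labelled double mutant replicate 2 gave a log2 intensity of 5.68. Wild type arrays ranged from 5.16 to 5.85 and Fshr mutant arrays from 8.44 to 8.74. These values are of the brightest Fshr probe. With the mean of the Fshr probes the difference between double mutant and Lhr null changed its sign. By the brightest probe alone, the array labelled double mutant replicate 2 went against its Fshr label. Counts are therefore also given without both arrays, an alternative chosen after seeing the data. Below, values of double mutant replicates are listed in the order 1 to 5, so the second value always belongs to this array. Genes of 2 cell types that neighbour macrophages or outnumber them moved with genotype. The mean log2 level over 8 Leydig cell genes was 8.36 to 10.34 on Wild type, 5.80 to 5.95 on Lhr null and 6.84 to 9.05 on double mutant arrays. The mean over 13 elongating spermatid genes was 12.72 to 12.83 on Wild type, 9.49 to 11.40 on Lhr null and 12.65 to 12.78 on double mutant arrays. The part of these shifts in any difference below was not tested. In RNA of whole testis, fewer cells of a type and less of an RNA in each cell cannot be told apart.

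The macrophage label was checked first on the genes that define leukocytes. Ptprc, the surface phosphatase CD45 of all leukocytes, was detected on 0 of 18 arrays with each of its 4 probes. Spi1, the transcription factor PU.1 that macrophages need, and Itgam, the integrin CD11b, were also detected on 0 arrays. Cd14, Ccr2, C3ar1, Ccl2 and Ccl24 were detected on 0 arrays as well. Tyrobp, Ctss, Cd163, Cd86 and Folr2 were detected on 1 array at most with any probe, and Il10ra on 2. Receptors of macrophages were nevertheless measured: Csf1r, the receptor for the growth factor that maintains macrophages, was detected on 17 arrays, Mrc1, the mannose receptor, on 18 and Adgre1, an adhesion receptor used to mark macrophages, on 11. The genes that could be tested are thus a mixture of macrophage receptors and of genes that other testis cells use as well, such as Ctsb, Lgmn, Apoe, B2m and the class I genes.

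Among the 26 tested genes, 8 were lower and 4 higher when Lhr null was set against Wild type. They included both lysozyme genes, 2 of 3 C1q genes, 3 of 8 surface genes, 2 of 4 MHC class II genes and 1 of 3 class I genes. The 8 lower genes were Aif1, Lyz2, C1qb, Lyz1, Pf4, Ms4a7, C1qc and Mrc1, and the 4 higher genes were H2-Eb1, H2-Aa, Lgmn and H2-K1. Of all genes tested, 71.2% were called in this comparison (limma, Benjamini-Hochberg adjusted p under 0.05), 44.2% higher and 27% lower. The 12 called of 26 members were thus below the share of all genes, and the median log2 difference was -0.18 for the members and 0.21 for all genes. Without Lhr null replicate 1 and the array labelled double mutant replicate 2, 13 members were called, 4 higher and 9 lower, and they included all 12. Cyclic loess in place of quantile normalization moved the median of all genes to 0.02 and the higher share of all calls from 62% to 50.6%, and then 4 members were higher and 10 lower. With array weights 8 members were called, 7 of the 12 among them, and without normalization between arrays 9 of the 12. Mrc1, C1qc and Pf4 lost their calls under both.

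The double mutant differed from Lhr null in 10 members. Aif1 and C1qb were higher in the double mutant, with differences of -0.12 and -0.02 from Wild type. Mpeg1, Lgmn, Ctsb, Pf4, Laptm5, H2-K1, H2-D1 and B2m were lower. Over all genes 74.2% were called, 29.3% higher and 45% lower, and the median difference was -0.21, beside -0.02 for the members. Without the same 2 arrays 10 members were called again, the same 10 genes.

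Against Wild type, 2 of 26 members were called in the double mutant, Ctsb and Pf4, both lower, beside 1.28% of all genes called and 0.843% called lower. The median log2 difference was -0.30 for the members and 0.02 for all genes. An unadjusted limma p under 0.05 was found for 10 of 26 members, beside 1769 of all genes tested. Without both arrays that stood apart, Ctsb and Pf4 kept their calls and Lyz1 gained one (-1.01, limma adjusted p = 0.0419). The calls of Ctsb and Pf4 were unsteady. Ctsb lost its call without Wild type replicate 1 (adjusted p = 0.079) or 3 (0.141) and without double mutant replicate 1 (0.0746), 3 (0.0942) or 5 (0.0951). Pf4 lost it without Wild type replicate 1 (adjusted p = 0.0719), 2 (0.0518) or 3 (0.122) and without double mutant replicate 3 (0.0782), 4 (0.0509) or 5 (0.0821). In Fshr mutant testes 0 of 26 members were called by limma against Wild type, beside 0% of all genes, with 0 members and 437 genes at an unadjusted p under 0.05. Member differences between Fshr mutant and Wild type ran from -0.45 for Pf4 to 0.14 for C1qb on the log2 scale. Between double mutant and Fshr mutant 0 members were called by limma, beside 0.0278% of all genes. There 9 of 26 members had an unadjusted p under 0.05, beside 683 of all genes tested. These comparisons share arrays, so their differences are not independent of each other.

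**Figure D1:**
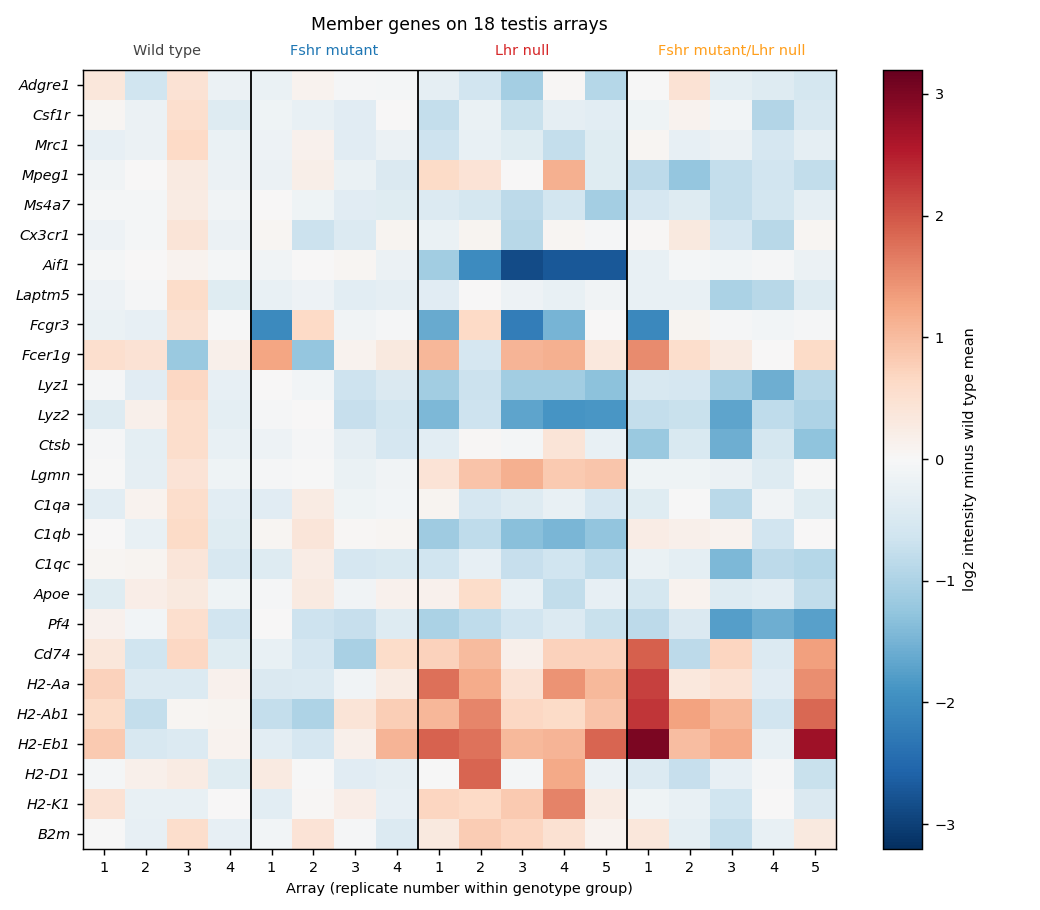
Colour map of the 26 tested genes (rows) on the 18 arrays (columns, replicate number within each genotype group), where colour is the log2 intensity minus the Wild type mean. Aif1 is between 1.12 and 2.86 below the Wild type mean on the Lhr null arrays, and Fcgr3 and Fcer1g vary between arrays within each group other than by genotype.

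Of 8 tested surface and identity genes, 3 were lower in Lhr null and none was higher, beside 27% lower and 44.2% higher of all genes, with a median of -0.47. Aif1 is an actin-binding protein of macrophages that in rats has also been described in spermatids. Its log2 intensity was 11.80, 11.87, 11.98 and 11.82 in Wild type and 11.76, 11.87, 11.94 and 11.67 in Fshr mutant testes. It was 10.75, 9.84, 9.0, 9.16 and 9.15 in Lhr null replicates 1 to 5 and 11.62, 11.79, 11.78, 11.83 and 11.69 in the double mutant. All 5 Lhr null arrays lay below all others, and the other groups overlapped. Lhr null differed from Wild type by -2.29 ± 0.24 (SE, limma adjusted p = 2.51e-07), which is 4.88-fold lower, and the double mutant from Lhr null by 2.16 ± 0.23 (SE, adjusted p = 1.83e-07). Double mutant and Wild type differed by -0.12 ± 0.24 (SE, adjusted p = 0.849).

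The Lhr null arrays differed among themselves in Aif1 by up to 1.74 on the log2 scale. The mean level of the elongating spermatid genes was 11.40 and 10.57 on Lhr null replicates 1 and 2, and lower on replicates 3, 4 and 5, down to 9.49. Replicates 1 and 2 were the highest for both Aif1 and these germ cell genes. Of 20 lymphocyte and natural killer cell markers, 4 were tested and 10 were detected with no probe on any array. In Lhr null against Wild type 1 of the 4 was higher and 2 were lower, with a median of -0.03. Cd3d, a T cell receptor subunit, was lowest in Lhr null, at 9.44 to 10.56 in Wild type, 7.02 to 8.52 in Lhr null and 10.18 to 10.82 in double mutant testes. Cd8b1, a chain of the CD8 coreceptor, was higher, with means of 9.35 in Wild type and 9.87 in Lhr null. Cd3e, another T cell receptor subunit, differed by 0.37 ± 0.22 (SE, limma adjusted p = 0.143). The part of germ cells in the Aif1 difference was not tested.

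The 3 Aif1 probes did not behave alike in the double mutant. A second bright probe, ILMN_1212938, fell by 2.40 in Lhr null against Wild type and differed by 0.14 between double mutant and Wild type. The dim probe ILMN_1218123 had means of 7.03, 6.44, 5.06 and 6.11 in Wild type, Fshr mutant, Lhr null and double mutant testes. It differed by -1.96 between Lhr null and Wild type (limma adjusted p = 1.32e-06) and by -0.92 between double mutant and Wild type (adjusted p = 0.0839). For this probe the double mutant mean lay between Lhr null and Wild type.

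The other surface genes changed less. Ms4a7, a membrane protein of tissue macrophages, was 5.78 to 6.15 in Wild type, 4.81 to 5.46 in Lhr null and 5.13 to 5.61 in double mutant testes. Neither Lhr null nor the double mutant overlapped Wild type. Ms4a7 fell by 0.70 ± 0.14 (SE) in Lhr null (limma adjusted p = 1.97e-04), and differed by -0.52 ± 0.14 (SE, adjusted p = 0.0736) in the double mutant. Mrc1 was 8.21, 8.29, 9.12 and 8.26 in Wild type and 7.71 to 8.23 in Lhr null, and differed by -0.49 ± 0.18 (SE, adjusted p = 0.0194). Wild type replicate 3 carried much of this difference, which was -0.27 without it (adjusted p = 0.105). That array also had the highest level in Wild type of 21 of the 26 members and the highest mean of the Leydig cell genes, 10.34. The share of all tested genes highest on it was not computed. Its median intensity before normalization was 76.8, against 56.3 to 64.2 on the other Wild type arrays. It also had the most detected probes of the Wild type arrays, 18063.

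Adgre1 and Csf1r lay just beyond the threshold. Adgre1 was 5.16 to 6.26 in Wild type and 4.71 to 5.83 in Lhr null, a difference of -0.57 ± 0.25 (SE, limma adjusted p = 0.0506). Adgre1 passed with median scaling (0.0251) and cyclic loess (0.0132), among others, but stayed without a call in 20 of 31 alternatives (up to 0.176). Csf1r was 5.77 to 6.73 in Wild type and 5.42 to 5.96 in Lhr null, a difference of -0.46 ± 0.21 (SE, adjusted p = 0.0545). Csf1r passed with median scaling (0.0433) and cyclic loess (0.00729), among others, but stayed without a call in 24 of 31 alternatives (up to 0.232). In the double mutant Adgre1 was 5.24 to 6.26 and Csf1r 5.23 to 6.30, both overlapping Wild type and Lhr null. Cx3cr1, the fractalkine receptor, was detected on 7 arrays and differed by -0.20 ± 0.25 (SE) in Lhr null and by -0.20 ± 0.25 (SE) in the double mutant, without a call.

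Mpeg1 and Laptm5 were not called in Lhr null against Wild type and had their lowest means in the double mutant. Mpeg1, the pore-forming perforin-2 of phagocytes, was 6.95 to 7.43 in Wild type, 6.69 to 7.33 in Fshr mutant and 6.75 to 8.28 in Lhr null testes, and 6.30, 5.90, 6.39, 6.54 and 6.35 in the double mutant. All 5 double mutant arrays lay below every other array. The double mutant was lower than Lhr null by 1.21 ± 0.22 (SE, limma adjusted p = 6.47e-05), and differed from Wild type by -0.85 ± 0.23 (SE, adjusted p = 0.078). Laptm5, a lysosomal membrane protein of blood cells, was 7.62 to 8.01 in Lhr null and 6.96 to 7.74 in the double mutant. Its difference of -0.39 ± 0.17 (SE, adjusted p = 0.0468) was lost with median scaling (0.0674), cyclic loess (0.357) and without any of 12 single arrays.

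Lysozyme transcripts were lower in Lhr null, and in the double mutant they were also below every Wild type array. Lyz1 and Lyz2 encode lysozymes, known mainly from the gut and from phagocytes in that order, which break bacterial cell walls. The genes are neighbours and near-identical, so a probe of one may also bind RNA of the other. Lyz2 was 7.71, 8.29, 8.70 and 7.82 in Wild type, 6.69, 7.48, 6.44, 6.24 and 6.26 in Lhr null and 7.36, 7.43, 6.44, 7.31 and 7.15 in double mutant testes. Lhr null and double mutant arrays all lay below Wild type, and they overlapped each other. Lyz2 fell by 1.51 ± 0.27 (SE, limma adjusted p = 7.5e-05) in Lhr null, and differed by -0.99 ± 0.27 (SE, adjusted p = 0.0788) in the double mutant.

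Lyz1 was 9.63 to 10.65 in Wild type, 8.68 to 9.32 in Lhr null and 8.43 to 9.48 in double mutant testes. Neither Lhr null nor the double mutant overlapped Wild type. Lyz1 fell by 1.06 ± 0.23 (SE, limma adjusted p = 4.37e-04) in Lhr null and differed by -0.92 ± 0.23 (SE, adjusted p = 0.0569) in the double mutant. The double mutant difference of Lyz1 passed the threshold with median scaling (adjusted p = 0.0469) and cyclic loess (0.044), and without the array labelled double mutant replicate 2 (-1.01, 0.0364). Between double mutant and Lhr null neither gene was called, with 0.15 ± 0.21 (SE) for Lyz1 and 0.51 ± 0.25 (SE) for Lyz2. Lyz2 passed there with cyclic loess (0.70, adjusted p = 0.0232), without double mutant replicate 3 (0.69, 0.0194) and without Lhr null replicate 2 (0.73, 0.00934).

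The lysosomal proteases took another course. Lgmn, legumain, which cuts antigens and activates cathepsins, was 8.65 to 9.36 in Wild type, 9.37 to 10.05 in Lhr null and 8.52 to 8.91 in double mutant testes. Lhr null did not overlap any other group. Lgmn was higher by 0.84 ± 0.14 (SE, limma adjusted p = 3.42e-05) in Lhr null than in Wild type and fell by 1.02 ± 0.13 (SE, adjusted p = 1.78e-06) in the double mutant against Lhr null. Ctsb, cathepsin B, was 9.83 to 10.70 in Wild type and 9.79 to 10.55 in Lhr null, a difference of -0.04 ± 0.23 (SE). In the double mutant it was 8.94, 9.64, 8.56, 9.58 and 8.84, below all arrays of both groups, and lower than Lhr null by 0.98 ± 0.21 (SE, adjusted p = 4.26e-04) and than Wild type by 1.02 ± 0.23 (SE, adjusted p = 0.0349). The array labelled double mutant replicate 2 had the highest double mutant level of Ctsb, and its mean over Leydig cell genes was 9.05, against 6.84 to 7.32 on the other double mutant arrays. The part of Leydig cell RNA in these values was not tested.

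Of the 4 tested genes of complement and lipid transport, C1qb and C1qc were lower in Lhr null, and only C1qb was called in the double mutant against Lhr null. C1qa, C1qb and C1qc encode the 3 chains of C1q, which starts the classical complement pathway. The genes lie together on chromosome 4. C1qb was 7.70, 7.47, 8.31 and 7.31 in Wild type, 6.55, 6.90, 6.36, 6.22 and 6.45 in Lhr null and 7.92, 7.85, 7.82, 7.07 and 7.72 in double mutant testes. The Lhr null arrays lay below all others, while Wild type and double mutant overlapped. C1qb fell by 1.20 ± 0.20 (SE, limma adjusted p = 2.96e-05) in Lhr null and was higher by 1.18 ± 0.19 (SE, adjusted p = 1.66e-05) in the double mutant than in Lhr null.

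C1qc was 7.07, 7.08, 7.38 and 6.48 in Wild type, 6.36, 6.74, 6.26, 6.37 and 6.19 in Lhr null and 6.78, 6.69, 5.55, 6.15 and 6.08 in double mutant testes. The groups overlapped, and the double mutant mean was not above that of Lhr null. The difference between Lhr null and Wild type was -0.62 ± 0.23 (SE, limma adjusted p = 0.0238). It lost its call without Wild type replicate 1 (0.0511), 2 (0.0522) or 3 (0.0873) or Lhr null replicate 5 (0.0507). C1qa was detected on 1 of 4 Wild type, 1 of 4 Fshr mutant, 2 of 5 Lhr null and 0 of 5 double mutant arrays and was not called in any comparison, so its values lie at or near background. The difference between C1qb and C1qc in the double mutant was not tested. Apoe, the lipid carrier apolipoprotein E, was not called in any comparison, with -0.11 ± 0.23 (SE) in Lhr null and -0.39 ± 0.23 (SE) in the double mutant against Wild type.

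Pf4, a chemokine of platelets and of tissue macrophages, was the only one of the 3 listed member chemokines above the detection filter. It was 6.58, 6.36, 6.99 and 5.83 in Wild type, 5.44, 5.64, 5.82, 6.0 and 5.74 in Lhr null and 5.6, 5.97, 4.68, 4.87 and 4.71 in double mutant testes. Levels were lowest on double mutant replicates 3, 4 and 5, where Pf4 was not detected, and the groups overlapped. Pf4 fell by 0.71 ± 0.26 (SE, limma adjusted p = 0.0217) in Lhr null and by 1.27 ± 0.26 (SE, adjusted p = 0.0274) in the double mutant, both against Wild type. The Lhr null difference was lost without Wild type replicate 1 (0.0533) or 3 (0.0927). The call against Lhr null, -0.56 ± 0.25 (SE, adjusted p = 0.0496), was kept in 9 of 31 alternatives. Red blood cells share the blood with platelets. The mean over 4 of their genes was 8.12 to 9.62 on Wild type, 7.57 to 8.46 on Lhr null and 8.19 to 8.97 on double mutant arrays. Only 1 of the 4 was called lower in Lhr null than in Wild type (-2.51), beside 27% of all genes, and the median was -0.14. In the double mutant against Lhr null 1 was called higher, beside 29.3% of all genes, with a median of 0.05. The part of red blood cell genes in the Pf4 values was not tested.

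**Figure D2:**
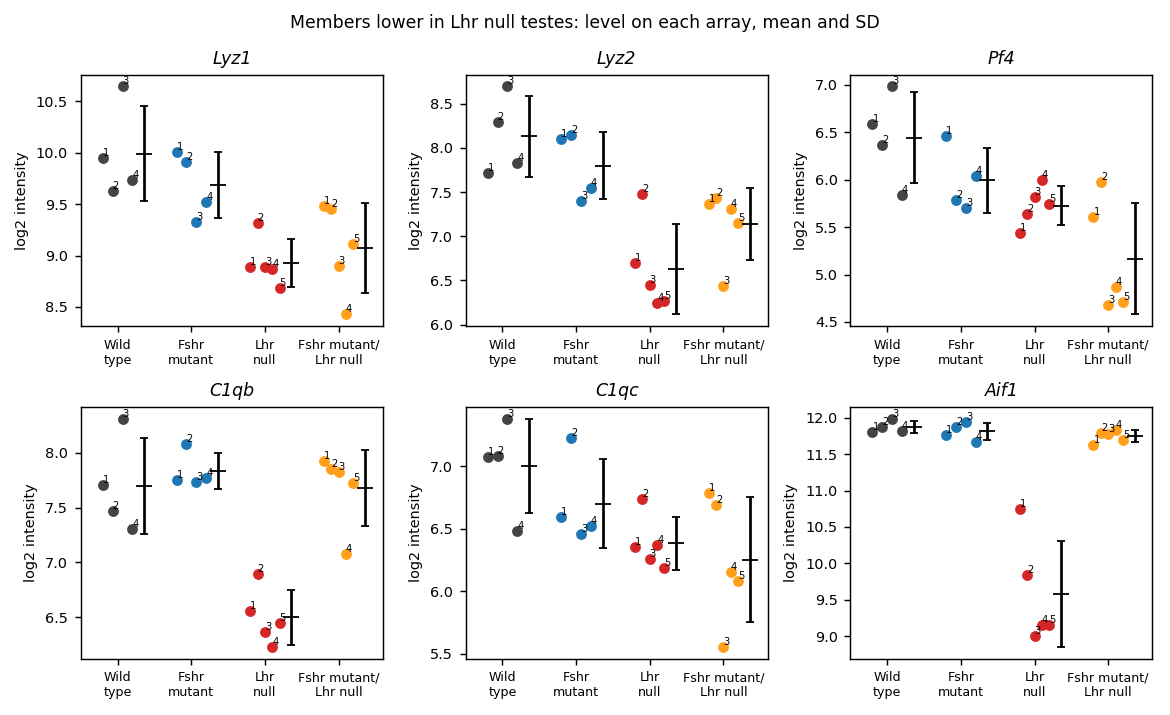
Log2 intensity (vertical axis) of Lyz1, Lyz2, Pf4, C1qb, C1qc and Aif1 on each array by genotype group, with the replicate number beside each point and the group mean ± SD beside the points. Aif1 and C1qb are low in Lhr null and near the Wild type mean in the double mutant, while the double mutant means of Lyz1, Lyz2, Pf4 and C1qc are below every Wild type array.

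All 4 MHC class II genes had higher means in Lhr null than in Wild type, and 2 of them were called, beside 44.2% of all genes called higher. Of these 2, H2-Aa passed the detection filter only through the Lhr null arrays. Their median was 1.07. H2-Aa, H2-Ab1 and H2-Eb1 encode chains of the class II molecules and Cd74 the invariant chain that escorts them. H2-Eb1 was 5.93, 4.58, 4.64 and 5.20 in Wild type and 4.75, 4.55, 5.24 and 6.17 in Fshr mutant testes. It was 6.97, 6.83, 6.12, 6.17 and 6.96 in Lhr null and 8.10, 6.07, 6.27, 4.85 and 7.79 in double mutant testes. All Lhr null arrays lay above Wild type, while the double mutant spanned 3.24 on the log2 scale and reached from Wild type levels to the highest of all arrays. H2-Eb1 was higher by 1.52 ± 0.52 (SE, limma adjusted p = 0.0145) in Lhr null, and the double mutant differed from Wild type by 1.53 ± 0.52 (SE, adjusted p = 0.153).

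H2-Aa was 5.58, 4.40, 4.38 and 4.97 in Wild type and 6.59, 6.02, 5.29, 6.27 and 5.86 in Lhr null, higher by 1.18 ± 0.40 (SE, limma adjusted p = 0.0149). Lhr null replicate 3 lay inside the Wild type range. H2-Aa was detected on 1 of 4 Wild type, 0 of 4 Fshr mutant, 4 of 5 Lhr null and 2 of 5 double mutant arrays. Without the Lhr null arrays H2-Aa would not have passed the filter, so its higher call there is not independent of the filter. H2-Ab1 was 6.49 to 7.86 in Wild type and 7.86 to 8.82 in Lhr null, a difference of 0.96 ± 0.47 (SE, adjusted p = 0.0783) with its brightest probe. Its other probes, ILMN_2631423 and ILMN_2913716, were called, with differences of 1.03 (adjusted p = 0.00933) and 1.22 (adjusted p = 0.00282). Cd74 was 6.33 to 7.65 in Wild type and 7.14 to 7.98 in Lhr null, a difference of 0.68 ± 0.46 (SE, adjusted p = 0.194). With array weights the calls of H2-Aa (0.0997) and H2-Eb1 (0.056) were lost. Fits on the compared groups alone called Cd74 (limma adjusted p = 0.04) and H2-Ab1 (0.0081). Cd74 stayed without a call in 30 of 31 alternatives, and H2-Ab1 in 28 of 31.

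The ranks of the class II genes over the arrays were alike on some arrays and not on others. Double mutant replicate 1 held the highest level of all 18 arrays in all 4 genes, and replicate 5 ranked 2nd for Cd74, H2-Ab1 and H2-Eb1 and 3rd for H2-Aa. Double mutant replicate 4 ranked 14th or 15th in each. Double mutant replicate 2 ranked 4th for H2-Ab1, 10th for H2-Aa and H2-Eb1 and 17th for Cd74, and Wild type replicate 3 ranked 8th for Cd74 and 14th to 17th for the others. The 3 H2 genes are neighbours on chromosome 17, while Cd74 lies on chromosome 18. The double mutant values were H2-Aa at 7.01, 5.17, 5.28, 4.46 and 6.33, H2-Ab1 at 9.54, 8.53, 8.30, 6.63 and 9.08 and Cd74 at 8.88, 6.14, 7.67, 6.53 and 8.29. None of the 4 genes was called in the double mutant against any group, and the spread within the double mutant was wider than the mean differences from Lhr null, which ran from -0.36 to 0.20. FVB/N and C57/BL6 mice carry different H2 haplotypes, and which copy each mouse carried is not given, so its part in the levels of H2 genes was not tested.

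All 3 MHC class I genes had higher means in Lhr null than in Wild type, as did 6485 of all 10798 genes. Of the 3, 1 was called higher, beside 44.2% of all genes. All 3 were called lower in the double mutant against Lhr null, beside 45% of all genes. H2-K1 and H2-D1 encode the classical class I heavy chains and B2m their light chain. The heavy chain genes are near-identical to one another, so their probes may share RNA. H2-K1 was 7.37, 6.67, 6.67 and 6.92 in Wild type, 7.61, 7.55, 7.75, 8.50 and 7.17 in Lhr null and 6.78, 6.67, 6.28, 6.91 and 6.44 in double mutant testes. Lhr null replicate 5 overlapped Wild type, and no Lhr null array overlapped the double mutant. H2-K1 was higher by 0.81 ± 0.22 (SE, limma adjusted p = 0.00303) in Lhr null than in Wild type and fell by 1.10 ± 0.21 (SE, adjusted p = 1.05e-04) in the double mutant against Lhr null.

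H2-D1 stood out by the spread within Lhr null, with 8.35, 10.22, 8.29, 9.56 and 8.16, against 7.96 to 8.62 in Wild type and 7.61 to 8.32 in the double mutant. Replicates 2 and 4 were above every other array, and the remaining Lhr null arrays lay in the Wild type range. H2-D1 did not differ from Wild type past the threshold (0.57 ± 0.33, SE, limma adjusted p = 0.137), and fell by 1.00 ± 0.32 (SE, adjusted p = 0.00818) in the double mutant against Lhr null. A second H2-D1 probe, ILMN_2476267, gave 0.58 and -1.18. B2m was 9.58 to 10.27 in Lhr null and 8.70 to 9.81 in the double mutant, lower by 0.61 ± 0.22 (SE, adjusted p = 0.0188). This call of B2m was lost with median scaling (-0.35, 0.147) and cyclic loess (-0.42, 0.102), and without double mutant replicate 3 (-0.45, 0.0646) or Lhr null replicate 2 (-0.53, 0.0516).

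The promoters of MHC genes are known for a Y box, a CCAAT-type element bound by the factor NF-Y, which in class II genes belongs to the module through which the coactivator CIITA acts. The letters CTGATTGG, or CCAATCAG on the other strand, were searched in the RefSeq promoters of build GRCm38.p6, in windows of 300 bases around each annotated start. They occurred in 4.1% of 32851 promoter windows and in 4 of the 20 tested members with a promoter entry, all of them H2 genes. The percentage counts each window, while a member counted when any of its windows held the letters, so the shares are not alike measures. The promoters of these 4 H2 genes are shown because they are the members whose windows hold these letters, and the capitals mark the matched letters. A match describes the letters only, and the mice carried a second strain's alleles that may differ from this reference. The H2-Aa promoter (chr17:34287774-34288073, minus strand) and the H2-Eb1 promoter (chr17:34305617-34305916, plus strand) hold the letters at -51 and -62 from the start. The promoters of H2-K1 (chr17:34000284-34000583, minus strand, for 1 of 2 annotated starts) and H2-D1 (chr17:35262844-35263143, plus strand) hold them on the opposite strand at -6 and -53.
H2-Aa: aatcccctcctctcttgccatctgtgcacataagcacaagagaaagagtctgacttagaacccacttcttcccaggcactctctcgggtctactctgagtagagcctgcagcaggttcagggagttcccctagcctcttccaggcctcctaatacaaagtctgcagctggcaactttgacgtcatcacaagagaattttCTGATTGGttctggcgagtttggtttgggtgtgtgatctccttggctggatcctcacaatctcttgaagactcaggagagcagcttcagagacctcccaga
H2-Eb1: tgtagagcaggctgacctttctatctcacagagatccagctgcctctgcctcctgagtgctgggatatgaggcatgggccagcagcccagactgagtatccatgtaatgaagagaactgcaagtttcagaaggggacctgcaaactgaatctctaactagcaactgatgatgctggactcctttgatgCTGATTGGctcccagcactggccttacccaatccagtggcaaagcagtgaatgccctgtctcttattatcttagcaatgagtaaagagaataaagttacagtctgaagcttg
H2-K1: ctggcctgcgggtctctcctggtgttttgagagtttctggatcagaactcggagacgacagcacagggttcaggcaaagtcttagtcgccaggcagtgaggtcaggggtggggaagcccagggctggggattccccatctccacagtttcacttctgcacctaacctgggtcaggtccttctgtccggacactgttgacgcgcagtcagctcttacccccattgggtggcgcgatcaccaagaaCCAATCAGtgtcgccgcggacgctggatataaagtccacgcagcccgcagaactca
H2-D1: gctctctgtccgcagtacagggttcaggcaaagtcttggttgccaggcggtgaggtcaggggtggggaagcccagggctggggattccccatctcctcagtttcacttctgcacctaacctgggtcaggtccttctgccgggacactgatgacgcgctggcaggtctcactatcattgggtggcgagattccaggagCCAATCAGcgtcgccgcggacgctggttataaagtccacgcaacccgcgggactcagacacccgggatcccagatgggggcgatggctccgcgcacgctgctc

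**Figure D3:**
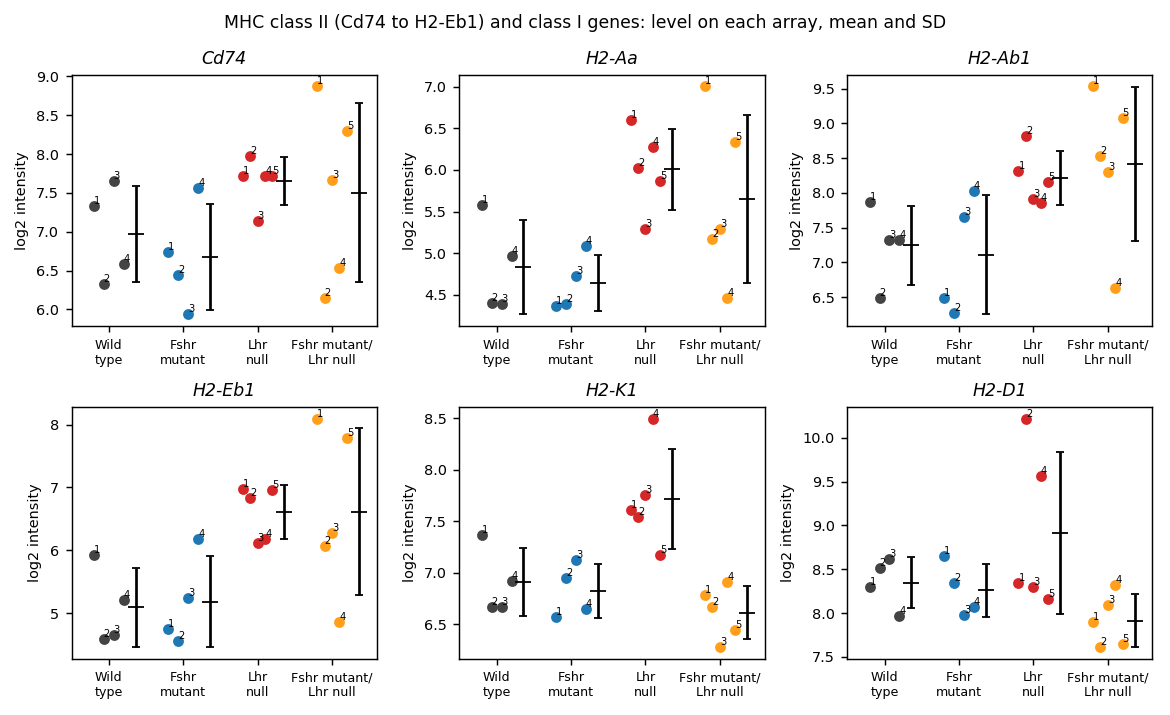
Log2 intensity (vertical axis) of the 4 class II genes and of H2-K1 and H2-D1 on each array by genotype group, with the replicate number beside each point and the group mean ± SD beside the points. Double mutant replicates 1 and 5 are the highest of their group in every class II gene, while all double mutant arrays of H2-K1 lie below all Lhr null arrays.

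A core of the binding site of PU.1, GAGGAAG or CTTCCTC on the other strand, was searched in the same windows. It occurred in 13.6% of all promoter windows and in 5 of the 20 members, namely C1qc, Fcgr3, Laptm5, Mrc1 and Pf4. Windows and members were counted as for the Y box, so these shares are not alike measures either. Ciita, the class II coactivator, was detected on 0 arrays.

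The interaction asked whether the difference made by loss of Lhr itself differed with the Fshr mutation. It was called for 5 of 26 members, beside 60.1% of all genes, with 23.2% higher and 36.9% lower. Aif1 (2.22 ± 0.35, SE, limma adjusted p = 4.04e-05) and C1qb (1.05 ± 0.28, SE, adjusted p = 0.00368) were positive. Mpeg1 (-1.04 ± 0.32, SE), H2-K1 (-1.02 ± 0.31, SE) and Lgmn (-0.93 ± 0.20, SE) were negative. The interaction of C1qb lost its call without normalization between arrays (0.83, adjusted p = 0.108). Class II genes gave interactions of -0.17 to 0.34, none called, and Lyz1, Lyz2 and Pf4 gave 0.45, 0.85 and -0.11, none called. Without both arrays that stood apart 6 members were called, the 5 above and Ctsb (-0.94, adjusted p = 0.0157).

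**Figure D4:**
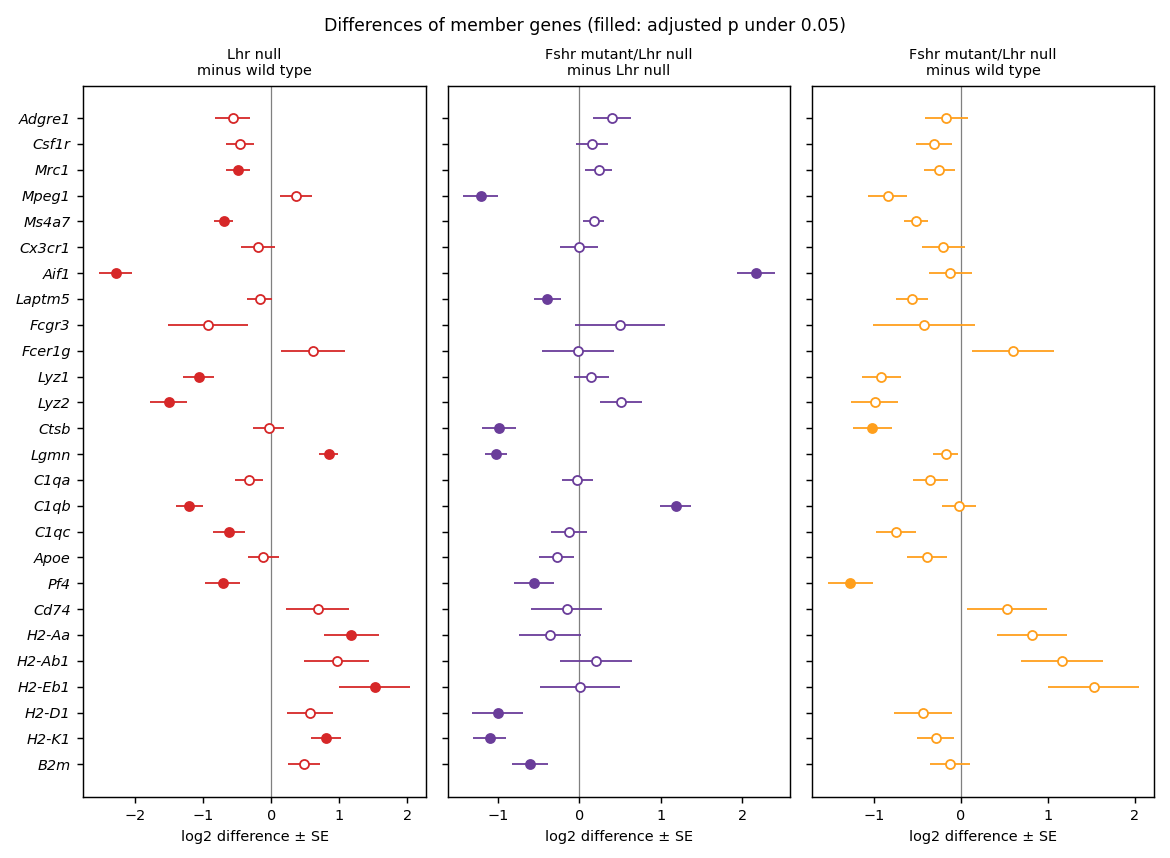
Log2 difference ± SE (horizontal axis) of each tested gene for Lhr null minus Wild type, double mutant minus Lhr null and double mutant minus Wild type, with filled points for adjusted p under 0.05. Aif1 and C1qb lie left of 0 in the first panel and right of 0 in the second, and in the third panel only Ctsb and Pf4 are filled.

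Fcgr3 and Fcer1g fell into an array pattern that genotype did not follow. Fcgr3 encodes a low-affinity receptor for immunoglobulin G, and Fcer1g the signalling chain that it pairs with. Fcgr3 was 7.18 on Fshr mutant replicate 1, 7.15 on double mutant replicate 1 and 7.60, 7.0 and 7.73 on Lhr null replicates 1, 3 and 4. On the other 13 arrays it was 8.94 to 9.85, so no array lay between 7.73 and 8.94. The same 5 arrays had the highest Fcer1g, 6.67 to 7.14, against 4.38 to 6.23 on the others. Neither gene was called in any comparison, with -0.93 ± 0.59 (SE) for Fcgr3 and 0.61 ± 0.47 (SE) for Fcer1g between Lhr null and Wild type.

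Both genes lie on chromosome 1, with 7 protein-coding genes between them. The 10 genes whose levels correlated most strongly with Fcgr3 over the 18 arrays, in either direction, included 8 genes of chromosome 1, and so did the 10 for Fcer1g. Chromosome 1 holds 5.22% of all tested genes. This description was chosen after the values were seen. The arrays come from a cross of 2 strains, the labels do not say which strain's copy of this region each mouse carried, and its part in the pattern was not tested.

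**Figure D5:**
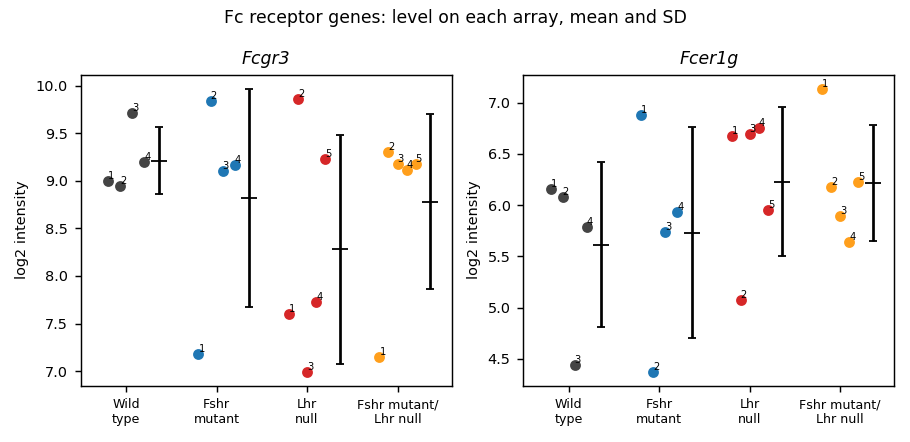
Log2 intensity (vertical axis) of Fcgr3 and Fcer1g on each array by genotype group, with the replicate number beside each point and the group mean ± SD beside the points. The 5 arrays with Fcgr3 at or below 7.73 are the 5 with the highest Fcer1g, and they come from 3 of the 4 groups.

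Other genes of the same pathways were counted from lists of pathway members. Their counts are to be read beside all genes, of which 44.2% were higher and 27% lower in Lhr null against Wild type, with a median of 0.21, and 29.3% higher and 45% lower in the double mutant against Lhr null. Of 37 other phagocyte genes 13 were tested, and 6 were higher and 2 lower in Lhr null than in Wild type, the higher share near that of all genes, with a median of 0.14. Msr1, a scavenger receptor for modified lipoproteins, fell by 1.40 ± 0.31 (SE) in Lhr null and was higher by 1.7 ± 0.29 (SE) in the double mutant than in Lhr null, as Aif1 and C1qb were. Cd209f, a lectin, fell by 1.44 ± 0.27 (SE) in Lhr null. Slc40a1, the iron exporter ferroportin, differed by 1.84 ± 0.22 (SE) between Lhr null and Wild type and by -2.48 ± 0.21 (SE) between double mutant and Lhr null, and Axl, a receptor for engulfment of dying cells, by 1.19 ± 0.14 (SE) and -1.13 ± 0.13 (SE). The last pair moved in the direction of Lgmn and H2-K1.

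Of 31 other antigen presentation genes 19 were tested, and 11 were higher and 3 lower in Lhr null, with a median of 0.49. In the double mutant against Lhr null 3 were higher and 10 lower. H2-T23, a nonclassical class I gene, was higher by 1.44 ± 0.20 (SE) in Lhr null and lower by 1.01 ± 0.19 (SE) in the double mutant, and Psme2, a proteasome activator, was higher by 1.29 ± 0.13 (SE) and lower by 1.13 ± 0.12 (SE). H2-DMb1, which loads peptide onto class II, was higher by 0.95 ± 0.25 (SE) in Lhr null and differed by -0.18 ± 0.23 (SE) between double mutant and Lhr null, without a call. Nlrc5, the coactivator of class I genes, was detected on 0 Lhr null arrays and was at least 1.38-fold lower there than in Wild type, opposite in direction to H2-K1.

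Of 26 other complement genes 13 were tested, with 3 higher and 6 lower in Lhr null and a median of -0.44. The largest falls were in Cd55 (-2.69 ± 0.26, SE) and Cd59b (-2.25 ± 0.22, SE), inhibitors of complement on the cell surface, and Cd59b is known from mouse testis germ cells. Cfi, a protease that inactivates complement, was detected on all 5 Lhr null arrays and on 0 others, and its Lhr null level exceeded that of Wild type at least 1.75-fold. Cfi passed the filter only through the Lhr null arrays, so its higher level there is not independent of the filter. C2, of the classical pathway, was called between double mutant and Wild type, lower by 1.08 ± 0.22 (SE, limma adjusted p = 0.0233). Of 28 other lysosomal genes 22 were tested, with 9 higher and 3 lower in Lhr null, no more than the shares of all genes, and a median of 0.29. They had 1 higher and 13 lower in the double mutant against Lhr null. Lamp2 and Psap, a membrane protein and a lipid-degradation cofactor of lysosomes, were higher by 1.32 ± 0.12 (SE) and 1.09 ± 0.11 (SE) in Lhr null. Ctsh, cathepsin H, was the only other lysosomal gene called between double mutant and Wild type, lower by 1.06 ± 0.24 (SE, adjusted p = 0.0374), near the value of Ctsb.

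Of 31 ligands and recruitment signals 13 were tested, with 2 higher and 2 lower in Lhr null and a median of -0.04. Mif, an inhibitor of macrophage migration that many cells make, was higher by 0.92 ± 0.11 (SE). Ccl17, a chemokine for T cells, was called lower, but it was detected on 1 of 4 Wild type and 0 of 5 Lhr null arrays, so no fold is given. Of 10 ribosomal and housekeeping genes 8 were higher and 1 lower in Lhr null, with a median of 0.85, beside 0.21 for all genes. Of 10 Sertoli cell genes 8 were higher and 1 lower, with a median of 1.37, and the part of a larger share of somatic RNA in the MHC and lysosomal values was not tested.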

How the data were processed

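Biotin-labelled total RNA of mouse testis was hybridised to Illumina bead arrays, which the authors summarised with GenomeStudio 1.7.0, per the submitters' processing notes. Per the file headers, the deposited table gives each of 45281 probes a linear intensity, a detection p-value and a number of beads per array. Nothing in these values shows a background subtraction. Steps of 1 over 936 separate the detection p-values. The authors' second deposited table of processed intensity values, whose normalization is not given in these sources, served as an alternative only. Median bead numbers were 40 to 43, and no 2 arrays held identical values.

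Arrays were grouped by the genotype in the labels. Intensities were corrected with normexp (limma 3.58.1 in R 4.3.3, background inferred from detection p-values, offset of 16), quantile normalized and taken to log2. Symbols were updated through the gene identifier for 34807 of 34885 probes with 1 symbol; 18 probes have several symbols and 10378 none here. The brightest probe past the filter (detection p under 0.01 on at least 4 arrays) stood for a gene. Levels of different probes are not comparable with each other. With lmFit and eBayes, 4 group means were estimated from the 18 arrays for each of 10798 genes. Adjusted p-values are Benjamini-Hochberg values over all genes, or over 19076 probes for single probes, called at 0.05. Folds are on the scale after the offset and understate changes of dim genes. A group with 0 detections got a lower bound of the fold, computed against the lowest detected signal. The fit was tested on simulated data before use.

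The member genes, gene lists, tests and alternatives were chosen with earlier results of these data known. Any tested member may be named, and of other lists up to 4 called genes with the largest differences. The RefSeq tables name assembly GRCm38.p6. They were used for symbols, chromosomes and promoters. Of the 26 tested members 20 had a promoter entry. H2-Ab1 and the members on chromosome 18 are among those named without a promoter.

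Replicate numbers recur between groups. Over 25 pairs of arrays with the same number, the correlation of their deviations from the group means was -0.32 to 0.21 with a median of -0.02, and 5 pairs were above 0.1. The numbers were therefore not taken as pairs. Alternatives were no or a stronger background offset, median scaling, cyclic loess, no normalization, the authors' processed values, other filters, the mean of a gene's probes, array weights, a replicate block, fits on the compared groups alone, and fits without each array.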

Additional observations from a re-analysis of the deposited data

Results flagged for a closer look

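In 5 of 104 combinations of a member gene and a genotype group, 1 array stood far from the others of its group by Dixon's criterion. Chance flags about 1 in 20 groups, so this number is no more than chance gives. Mrc1 was 9.12 on Wild type replicate 3, against 8.21 to 8.29 on the other Wild type arrays. Fcgr3 was 7.15 on double mutant replicate 1, against 9.11 to 9.30. Lyz2 was 6.44 on double mutant replicate 3, against 7.15 to 7.43. C1qb was 8.08 on Fshr mutant replicate 2, against 7.73 to 7.77, and 7.07 on double mutant replicate 4, against 7.72 to 7.92.

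In 5 members the log2 difference made by loss of Lhr was itself different with and without the Fshr mutation, by the interaction term of the limma fit. It was 2.22 for Aif1, 1.05 for C1qb, -1.04 for Mpeg1, -1.02 for H2-K1 and -0.93 for Lgmn.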

How the results depend on the processing

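Of the values of single member genes under the alternatives, 4642 kept their direction or stayed without a call and kept their side of the threshold, 75 gained a call, 75 lost one and none of those called reversed. Leaving out each array in turn gave 10 to 14 called members between Lhr null and Wild type, 8 to 10 between double mutant and Lhr null, 0 to 4 between double mutant and Wild type and 5 to 7 in the interaction. Between Lhr null and Wild type, array weights gave 8 and no normalization 9. Leaving out each array gave 0 to 0 between Fshr mutant and Wild type and 0 to 0 between double mutant and Fshr mutant. The count for double mutant against Wild type, 2 in the report, was 5 without normalization, 1 without the filter on dim probes and 6 with array weights. It was 0 without Wild type replicate 1 or 3 or double mutant replicate 3 or 5, 1 without Wild type replicate 2 or double mutant replicate 1, and 4 without Lhr null replicate 5. Double mutant against Fshr mutant gave 1 call with array weights (Ctsb). The causes were not tested. The share of all genes called is not given beside the counts under alternatives, here and above. These counts are therefore no result about the members alone.

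With the replicate number as a block, counts were 12 between Lhr null and Wild type, of which 11 were among the calls without it, 8 between double mutant and Lhr null, 0 between double mutant and Wild type and 6 in the interaction. The numbers did not pair the arrays, and 6 of 18 arrays correlated best with an array of their own number.

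Cyclic loess moved the higher share of all calls from 38.6% to 50.3% in the interaction. Without normalization that share moved from 39.4% to 27.9% for double mutant against Lhr null, where the median of all genes moved from -0.21 to -0.44, and 2 members were higher and 9 lower. Of the other genes named, Fshr reversed between double mutant and Lhr null, to -1.13 with the mean of its probes. A slide block was not run because the headers name no slide. Dim members such as C1qa, Cx3cr1, H2-Aa and Ms4a7 lie near the detection limit, which understates their differences. The labels do not state separate animals.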
